A study of Saccharomyces cerevisiae with 16 samples.

Results

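Of the 16 Affymetrix Yeast Genome 2.0 arrays of a chaperonin mutant series in the budding yeast Saccharomyces cerevisiae, 2 had CCT3 transcript values under 11 on the log2 scale. Their labels are MA1 rep2 (replicate 2 of strain MA1) and MA6 rep2. They were chosen by their CCT3 value and set against the 8 other arrays that had TIR1 above 12 (log2), namely MA2 rep1 and rep2, MA3 rep2, MA5 rep2, MA7 rep1, MA8 rep1 and rep2, and WT rep2. The remaining 6 arrays, with TIR1 under 12, are given only as a range. Because CCT3 and TIR1 values chose the arrays, every difference between the 2 arrays and the 8 is a description of these arrays, with no test. The labels are uncertain, as URA3 shows further on, so the arrays are described under their labels and not as genotypes.

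The series set out to compare equivalent substitutions in different subunits of the chaperonin CCT. By its label, MA1 has D96E in TCP1 (CCT1 in the labels) and MA6 has D89E in CCT6. The other mutants have D90E in CCT2 (MA2), D91E in CCT3 (MA3), D117E in CCT5 (MA5), D96E in CCT7 (MA7) or D98E in CCT8 (MA8), and WT has no substitution. Every strain, WT included, carries leu2 and leu2-3, ura3-52, trp1, gal2 and the protease alleles pep4-3, prb1-1122 and prc467, and a CBP tag at CCT6. The insertion at CCT6 is marked with KanMX4 in MA6 and WT and with URA3 in MA1 and the other 5 mutants, in which the mutated subunit is marked with KANMX4. Cultures at 30 °C were harvested at an OD600 of 0.5, and biotinylated RNA made from each total RNA went onto 1 array. Nothing in the labels says that the 2 arrays of a strain came from separate cultures.

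CCT, also called TRiC, is a ring-shaped chaperonin of the cytosol built from different but related subunits. It folds actin and tubulin, among other proteins, in an ATP-driven cycle, and each subunit gene is essential in yeast. CCT3 encodes one of these subunits. PHO84 encodes the high-affinity phosphate transporter of the plasma membrane. It belongs to the phosphate (PHO) regulon, in which the transcription factor Pho4 is held in check by the cyclin-kinase pair Pho80 and Pho85 when phosphate is plentiful.

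The values that chose the arrays were as follows. CCT3 (YJL014W) was 10.16 on MA1 rep2 and 10.22 on MA6 rep2, against a lowest value of 12.18, a median of 12.27 and a highest of 12.37 on the 8 arrays (log2). The log2 difference between the 2 arrays and the 8 was -2.08, a 4.24-fold lower level, and the SD of the 8 arrays was 0.06. As CCT3 chose the arrays, the size of this difference is not evidence of a change. No array lay near the limit of 11: the lowest of the 14 other arrays, MA6 rep1, had 12.07, 3.60-fold above the higher of the 2. The level was low on neither array whose label names CCT3, since MA3 had 13.03 on rep1 and 12.37 on rep2. TIR1, a cell wall mannoprotein gene, was 12.75 on MA1 rep2 and 12.82 on MA6 rep2, against 12.35 to 13.27 on the 8 arrays, and the highest of the 6 arrays left out, MA7 rep2, had 10.87. The array has 1 probe set for CCT3, so no second probe set bears on the value.

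The other subunit genes did not follow CCT3. TCP1 was 12.65 on MA1 rep2 and 12.66 on MA6 rep2, against 12.55 to 12.74 on the 8 arrays. CCT4 was 13.02 and 13.07 on the 2 arrays, against 12.99 to 13.11, and CCT7 was 12.29 and 12.32, against 12.16 to 12.37. Each of these values lay inside the range of the 8. CCT8 was 12.87 on both arrays, against 12.80 to 13.04. CCT5 was 13.14 on both, against 12.78 to 13.16. CCT2 was 12.97 and 12.93, against 12.96 to 13.06, so MA6 rep2 lay just under the range. CCT6 was 12.92 on both arrays, against 11.46 to 12.94, a range widened by MA8 rep1 (11.46) and MA2 rep2 (11.64). Of the 8 CCT genes, 1 was outside the range of the 8 arrays on both arrays, namely CCT3, which chose them.

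**Figure D1:**
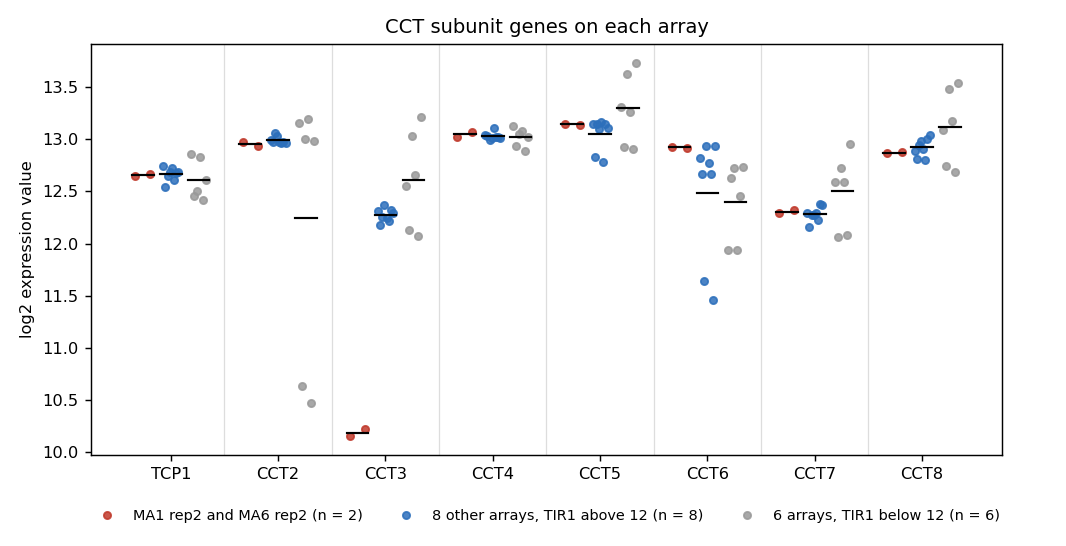
Log2 expression values (y axis) of the 8 CCT subunit genes (x axis), with 1 point per array and a black line at the mean, for MA1 rep2 and MA6 rep2 (red), the 8 other arrays with TIR1 above 12 (blue) and the 6 arrays with TIR1 below 12 (grey). CCT3 stands at 10.16 and 10.22 on the red arrays and at 12.18 or more on the blue ones, while the red points of the other genes lie in or beside the blue range.

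The genes beside CCT3 on chromosome X, as ordered in the R64 gene table, were near the level of the 8 arrays. MAD3, a spindle checkpoint gene, was 9.39 on MA1 rep2 and 9.50 on MA6 rep2, against 9.33 to 9.66. MPS3, of the spindle pole body, was 9.22 and 9.31, against 9.10 to 9.32. VTC4, the polyphosphate polymerase, was 12.02 and 11.98, against 11.79 to 12.05. BBC1, of actin patches, was 10.78 and 10.80, against 10.54 to 11.06, and RPC17, a subunit of RNA polymerase III, was 9.30 on both arrays, against 9.19 to 9.52. All 10 values lay inside the range of the 8 arrays, and TPH3 was not measured by a probe set of its own. Over the 316 measured genes of chromosome X the median difference between the 2 arrays and the 8 was -0.005 (log2).

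The largest differences on the 2 arrays were not in annotated genes. Of the 5430 probe sets without exactly 1 S. cerevisiae gene, 6 were at least 2-fold lower on the 2 arrays with both below all 8 (0.11%), and 0 were at least 2-fold higher with both above all 8 (0%). All 6 belong to the 47 reporter probe sets, whose names begin with RPTR-Sc. The annotation used here pairs them with no gene, so they are given by name only, and which RNA they detect was not determined.

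RPTR-Sc-J01347-2_at was 4.48 on MA1 rep2 and 4.54 on MA6 rep2, against a lowest value of 12.46 and a highest of 12.79 on the 8 arrays, and 12.33 to 12.75 on the 6 others (log2). The mean of the 2 arrays was 273-fold lower than the mean of the 8, on the scale of the deposited values, and the folds that follow also compare means. RPTR-Sc-J01347-4_at was 5.19 and 4.86 on the 2 arrays, against 12.27 to 12.45 on the 8 (158-fold lower). RPTR-Sc-J01347-3_at was 4.78 and 4.63, against 10.95 to 11.24 (83.4-fold lower). On each of the 14 other arrays these 3 probe sets read 10.79 or more. RPTR-Sc-U46493-1_s_at was 4.73 and 5.13 on the 2 arrays, against 9.09 to 9.23 on the 8 (18.6-fold lower). RPTR-Sc-J01347-1_s_at was 4.24 on both, against 7.33 to 7.68 (9.45-fold lower). RPTR-Sc-J01347-1_at was 3.63 and 3.29, against 4.84 to 5.55, with both sides near the dim end. For each of the 6, both arrays also lay below all 6 arrays with TIR1 under 12.

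The 2 arrays had these probe sets at the dim end of the scale. The 1746 probe sets listed for the fission yeast Schizosaccharomyces pombe, an organism that the labels do not list, had a median of 4.40 on MA1 rep2 and 4.35 on MA6 rep2, and medians of 4.35 to 4.41 on the 8 arrays. The 5th percentile of the S. cerevisiae probe sets was 6.05 on MA1 rep2 and 6.16 on MA6 rep2. Values this low are at background, so the folds of these probe sets are lower bounds, except that of RPTR-Sc-J01347-1_at. That probe set was also dim on the 8 arrays (4.84 to 5.55), so its fold gives no such bound. The other 41 reporter probe sets differed by -0.50 to 0.24 (log2), and 39 of them had a mean under 7 over the 16 arrays. The first arrays of the same labels were unlike the second: RPTR-Sc-J01347-2_at was 12.59 on MA1 rep1 and 12.42 on MA6 rep1, the arrays on which CCT2 was low (10.64 and 10.47).

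**Figure D2:**
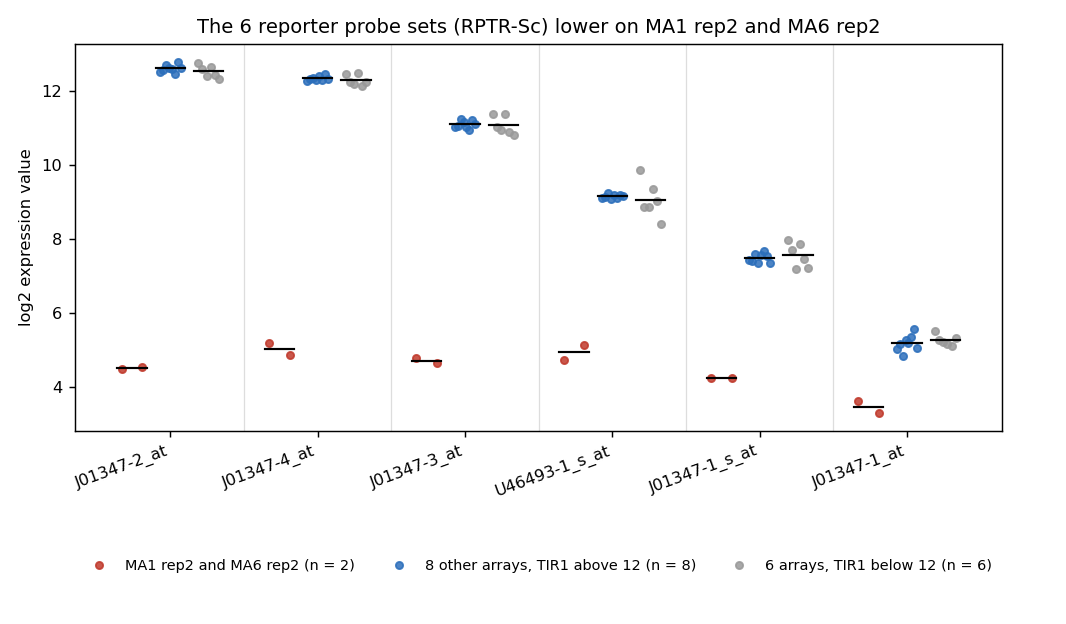
Log2 expression values (y axis) of the 6 reporter probe sets (x axis, without the prefix RPTR-Sc) on each array, with a black line at the mean, for MA1 rep2 and MA6 rep2 (red), the 8 other arrays with TIR1 above 12 (blue) and the 6 arrays with TIR1 below 12 (grey). The red points lie between 3.29 and 5.19 for all 6 probe sets, whatever the level of the blue and grey points.

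Among annotated genes the 2 arrays were close to the 8. Of 5449 genes, 4638 (85.1%) differed by under 0.1 log2, and the median SD of a gene over the 8 arrays was 0.08. With both arrays below all 8 and at least 2-fold lower there were 2 genes, CCT3 and YAR068W (0.0367%). CCT3 is in this count because it chose the arrays. With both above all 8 and at least 2-fold higher there were 0 genes (0%). Without the condition on overlap, 5 genes differed at least 2-fold: CCT3, PHO84, YAR068W, YIR042C and URA3. Both arrays were above all 8 for 91 genes (1.67%) and below all 8 for 108 genes (1.98%). The median difference between the mean of the 2 arrays and the mean of the 8 was 0.11 and -0.10 for these genes.

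**Figure D3:**
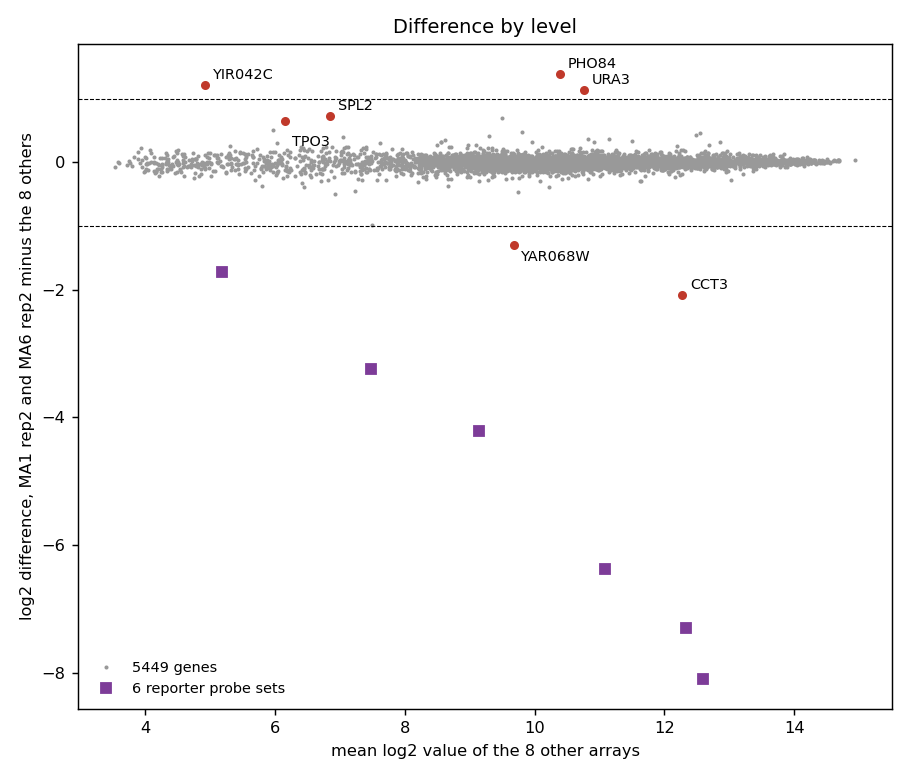
Difference between the mean log2 values of MA1 rep2 and MA6 rep2 and of the 8 other arrays (y axis) against the mean of the 8 (x axis, log2), for 5449 genes (grey; named genes in red) and the 6 reporter probe sets (purple squares). Dashed lines mark a 2-fold difference. CCT3 at -2.08 and the squares, from -1.72 to -8.09, lie apart from the cloud of genes.

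The strain markers did not settle the labels. URA3 (orotidine-phosphate decarboxylase) was 11.88 on MA1 rep2 and 11.90 on MA6 rep2, whose label has KanMX4 and not URA3 at CCT6. In WT, also labelled with KanMX4, URA3 was 11.95 on rep2 and 8.07 on rep1. On the 8 arrays the median was 11.91 and the lowest values were 7.23 on MA2 rep2 and 7.30 on MA8 rep1, both labelled with URA3. The 2.19-fold higher mean of the 2 arrays comes from those 2 of the 8. LEU2, of leucine synthesis, stood at 13.54 and 13.56 on these arrays, against 13.56 to 13.64. The vacuolar protease genes PEP4 (11.48 and 11.59, against 11.24 to 11.63), PRB1 (11.26 on both, against 11.14 to 11.43) and PRC1 (10.97 and 11.13, against 10.84 to 11.16) lay inside the range of the 8. GAL2 (galactose permease) was 6.18 and 5.93, against 5.97 to 6.59, and TRP1 was not measured.

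PHO84 was the gene most above the 8 arrays on average, and MA6 rep2 carried more of it than MA1 rep2. It was 11.39 on MA1 rep2 and 12.16 on MA6 rep2, against a lowest value of 9.39, a median of 10.33 and a highest of 11.62 on the 8 arrays. The difference was 1.38 (log2), 2.60-fold, where the SD of the 8 was 0.67. Taken alone, MA1 rep2 differed from the 8 by 1.00 and MA6 rep2 by 1.77 (log2). The groups overlapped, since MA2 rep2 (11.62) was above MA1 rep2. MA6 rep2 had the highest PHO84 of all 16 arrays, and the 6 arrays with low TIR1 spread from 5.80 to 11.32. SPL2, an inhibitor of low-affinity phosphate uptake, was 7.07 on MA1 rep2 and 8.08 on MA6 rep2, against 6.50 to 7.33 (1.65-fold). In SPL2 only MA6 rep2 was above the 8.

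Most other genes of the phosphate regulon lay in the range of the 8 arrays. Of 36 genes listed, 32 were measured, 2 were above all 8 on both arrays (PHO86 and KCS1) and 0 were below, beside 1.67% and 1.98% of all genes. The median difference of the 32 was 0.04, against -0.004 over all genes, and 23 of the 32 differences were above 0. By array, the median deviation of the 32 was 0.03 on MA1 rep2 and 0.07 on MA6 rep2, against -0.03 to 0.04 on the 8 arrays, so that only MA6 rep2 was outside. PHO86, which helps Pho84 leave the endoplasmic reticulum, was 11.91 and 11.93 on the 2 arrays, against at most 11.90. KCS1, an inositol hexakisphosphate kinase, was 10.74 and 10.71, against at most 10.70. PHO86 and KCS1 exceeded the 8 arrays by little.

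Among the phosphatases, PHO5 (secreted acid phosphatase) was 8.54 on MA1 rep2 and 8.82 on MA6 rep2, against 8.25 to 8.77. Its relative PHO11 was 9.33 and 9.73, against 9.05 to 9.61, and cannot be told from PHO12, which had no probe set of its own. PHO8 (vacuolar alkaline phosphatase) was 11.74 and 11.85, against 11.62 to 11.86, and PHM8 (a nucleotidase induced by low phosphate) was 8.93 and 9.16, against 8.70 to 9.54. MA6 rep2 was just above the 8 arrays in PHO5 and PHO11, and MA1 rep2 was inside in all 4. All 7 measured transport genes had a difference above 0. Of these, PHO87 (low-affinity uptake) was 11.29 and 11.25, against 11.07 to 11.28, and PHO89 (sodium-coupled uptake) was 7.41 and 7.58, against 7.11 to 7.99.

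In polyphosphate storage, VTC3, a subunit of the vacuolar transporter chaperone, was 10.82 on MA1 rep2 and 11.01 on MA6 rep2, against 10.56 to 10.89. VTC1 (13.11 and 13.14, against 13.04 to 13.19) lay inside the range, and VTC2 (12.17 and 12.03, against 11.87 to 12.12) was above it on MA1 rep2 alone. Of the regulators, PHO81, which encodes the inhibitor of Pho80 and Pho85, was 10.30 and 10.37, against 10.13 to 10.31. PHO4 was 11.53 and 11.56, against 11.42 to 11.65, and PHO80 was 10.51 and 10.50, against 10.37 to 10.58. These 3 regulators differed by at most 0.11 (log2). PHM7 had the lowest difference of the listed genes (-0.29), at 6.49 and 6.33, against 6.40 to 6.99.

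**Figure D4:**
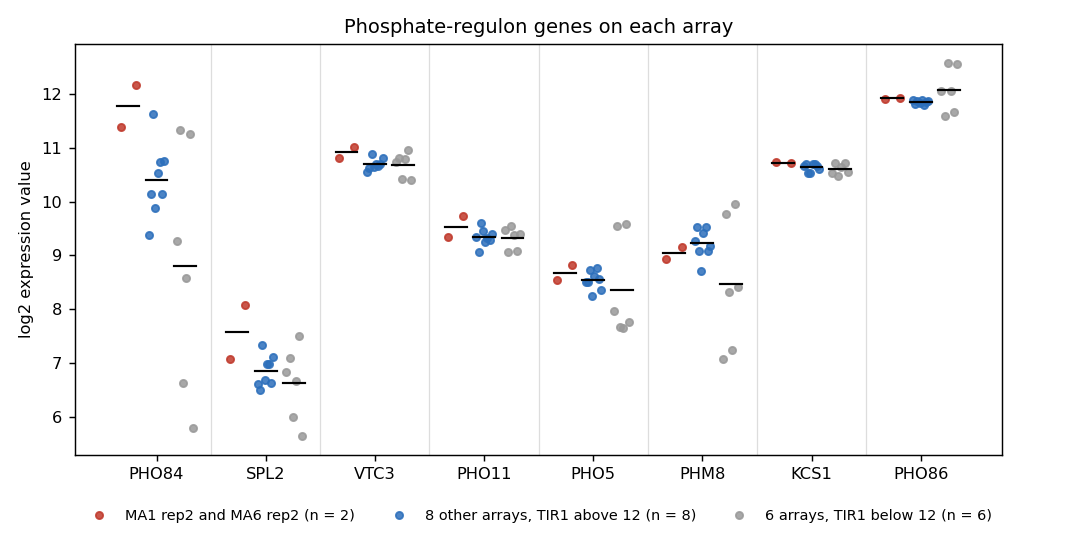
Log2 expression values (y axis) of 8 phosphate-regulon genes (x axis) on each array, with a black line at the mean, for MA1 rep2 and MA6 rep2 (red), the 8 other arrays with TIR1 above 12 (blue) and the 6 arrays with TIR1 below 12 (grey). PHO84 and SPL2 are highest on MA6 rep2, at 12.16 and 8.08, and the other genes differ little between red and blue.

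YAR068W and YAR066W, genes of unknown function on chromosome I, were the lowest annotated genes after CCT3 with both arrays below the 8. YAR068W was 8.36 on MA1 rep2 and 8.41 on MA6 rep2, against a lowest value of 8.62, a median of 9.29 and a highest of 10.99 on the 8 arrays, a 2.45-fold lower mean. Part of this came from 3 of the 8 arrays, MA3 rep2 (10.99), MA8 rep2 (10.87) and MA8 rep1 (10.59). Without those 3, the difference was -0.60 in place of -1.29 (log2). YAR066W was 6.47 and 6.55, against 6.60 to 8.75, and its difference was -0.33 without the same 3 arrays, in place of -0.98. Both genes have close copies elsewhere in the genome, so their probe sets may take up signal of several genes.

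The other genes with both arrays below all 8 differed little. RTC3, a stress-induced gene, was 9.20 on MA1 rep2 and 9.37 on MA6 rep2, against 9.41 to 10.11 (difference -0.46). FSH1, a serine hydrolase, was 11.28 and 11.39, against 11.49 to 11.84 (-0.29), and HOP1, a protein of meiotic chromosome axes, was 6.96 and 7.17, against 7.22 to 7.56 (-0.28). FLO11, the cell surface flocculin, was 7.31 and 7.29, against 7.47 to 7.66 (-0.27). The a-factor gene MFA1 was 11.96 and 11.91, against 11.97 to 12.55 (-0.23), SSA4, a stress-induced Hsp70, was 10.10 and 10.11, against 10.19 to 10.66 (-0.22), and SCW10, a cell wall protein, was 12.12 and 12.06, against 12.17 to 12.34 (-0.19). EFM6, YCL001W-A, YMR196W, PNS1 and YFL040W completed the 14 that follow CCT3, with differences between -0.26 and -0.21. Of these, YCL001W-A and YFL040W are dim genes, which reached at most 5.09 and 5.11 on the 8 arrays. On MA1 rep2 and MA6 rep2 both lay under the 5th percentile of the S. cerevisiae probe sets (6.05 and 6.16). Their small differences at this level are not evidence of lower expression.

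On the higher side TPO3, a polyamine exporter of the plasma membrane, came first. It was 6.55 on MA1 rep2 and 7.05 on MA6 rep2, against 5.66 to 6.45 on the 8 arrays (difference 0.65, 1.57-fold). TPO3 is a dim gene: the 5th percentile of the S. cerevisiae probe sets was 6.05 on MA1 rep2 and 6.16 on MA6 rep2. DSE1, a daughter-cell protein of cell separation, was 11.14 and 11.25, against 10.51 to 11.01 (0.37), and MDM20, a subunit of the NatB acetyltransferase, was 8.81 and 8.93, against 8.33 to 8.70 (0.32). After these and FIT1, the next 11 by size, from THP3 (0.27) to NUP170 (0.19), included the flippase kinase FPK1 (0.24), the kinetochore gene NUF2 (0.24), the mismatch repair gene MSH3 (0.22) and CTR9 of the Paf1 complex (0.20). TPO3 is the 1 gene of the 91 that differed 1.5-fold or more.

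The iron regulon had the highest median of the 42 gene lists. FIT1, a cell wall mannoprotein of siderophore iron uptake, was 11.54 on MA1 rep2 and 11.51 on MA6 rep2, against 10.77 to 11.43 (difference 0.37). Its relatives FIT2 (13.92 and 13.83, against 13.73 to 13.82) and FIT3 (14.30 and 14.28, against 14.11 to 14.27) were also above all 8, so 3 of 29 measured members were above and 0 below, beside 1.67% and 1.98% of all genes. The median of the 29 was 0.09, against -0.004 over all genes, and 25 differences were above 0. ARN2, a siderophore transporter, was 13.03 and 12.89, against 12.53 to 12.90. As a list, the iron genes had a median deviation from the mean of the 8 arrays of 0.10 on MA1 rep2 and 0.07 on MA6 rep2, inside the -0.10 to 0.11 of the 8 single arrays.

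For the proteins that CCT folds and those that work with it, no shift stood out. Of 13 actin and tubulin genes, including tubulin-folding cofactors, 0 were outside the 8 arrays on both arrays. The median difference was -0.02, and only 2 of the 13 differences were above 0. By array, their median deviation was -0.02 on MA1 rep2 and -0.03 on MA6 rep2, inside the -0.07 to 0.05 of the 8. ACT1 (actin) was 14.48 on MA1 rep2 and 14.44 on MA6 rep2, against 14.39 to 14.52, and TUB2 (beta-tubulin) was 13.21 and 13.19, against 13.15 to 13.24. Of 7 measured prefoldin and phosducin-like genes, whose products deliver or modulate CCT substrates, 0 were outside. The largest difference among these was that of PAC10, at 11.01 on both arrays, against 10.91 to 11.37 (-0.08). Of 28 actin cytoskeleton genes 1 was below, SLA2 (12.10 and 12.13, against 12.14 to 12.18). Of 27 chaperone genes, the Hsp110 gene SSE1 was above (13.67 and 13.65, against at most 13.58), and its stress-induced copy SSE2 (10.56 and 10.59, against at least 10.65) and SSA4 were below. Over all genes, 1.67% were above and 1.98% below the 8 arrays, so 1 of 28 is near the share of all genes.

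Ribosome biogenesis had the most members above the 8 arrays. Of 89 genes, 8 were above on both arrays (CBF5, DIP2, MAK21, NAN1, NOP7, RRP12, RRP5 and UTP10) and 1 was below (DBP8), beside 1.67% and 1.98% of all genes. The largest of the 8 was RRP12, of ribosome export, at 12.01 on MA1 rep2 and 11.99 on MA6 rep2, against 11.72 to 11.95. The median over all 89 was nevertheless 0.002. Of 127 cytosolic and 54 mitochondrial ribosomal protein genes 0 were outside, with medians of 0.02 and -0.004. In purine synthesis, 3 of 17 were above and 0 below, led by ADE4, the first enzyme of the pathway, at 11.93 and 11.98, against 11.71 to 11.84. In ergosterol synthesis, 3 of 24 were above (ERG11, ERG13 and NCP1), with differences of the means of 0.05 to 0.09.

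Coding length moved with these counts. The median coding length was 2202 bases for the 91 genes above all 8 arrays, 1048.5 for the 108 below and 1236 for all 5449. The rank correlation across genes of an array's deviation with coding length was 0.23 on MA1 rep2 and 0.07 on MA6 rep2, against -0.23 to 0.22 on the 8 arrays, the highest being WT rep2. These values describe genes within an array, which are not independent. Between the 3′ and 5′ control probe sets of SPT15, the log2 difference was 1.59 on MA1 rep2 and 1.56 on MA6 rep2, against 1.47 to 1.71. The part of length in the counts was not tested.

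On the lower side the general stress response had the lowest median of the 42 lists, at -0.11, with 8 of 31 differences above 0 and 0 members outside the 8 arrays. Its median deviation was -0.16 on MA1 rep2 and -0.02 on MA6 rep2, against -0.18 to 0.20 on the 8. HSP12, a membrane-protecting stress protein, was 12.33 on MA1 rep2 and 13.14 on MA6 rep2, against 12.43 to 13.69, so MA1 rep2 lay below the 8 arrays and MA6 rep2 inside their range. In the proteasome list RPN10 and RPT6 were below and 0 of 34 above, and in the unfolded protein response DER1 and ERV2 were below and 0 of 16 above. The pheromone list held 2 of 30 below (FUS3 and MFA1), and the flocculation list 3 of 8 (FLO11, YAR066W and YAR068W). Of these, YAR066W and YAR068W are of unknown function, and their differences came in part from the same arrays, as given above. In the flocculation list 3 members had a difference above 0. Over all genes, 1.67% were above and 1.98% below. In 20 of the 42 lists 0 members were outside, among them the hypoxic genes, histones and glycolysis. In 0 of the 42 lists did both arrays have a median outside the range of the 8 on the same side.

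**Figure D5:**
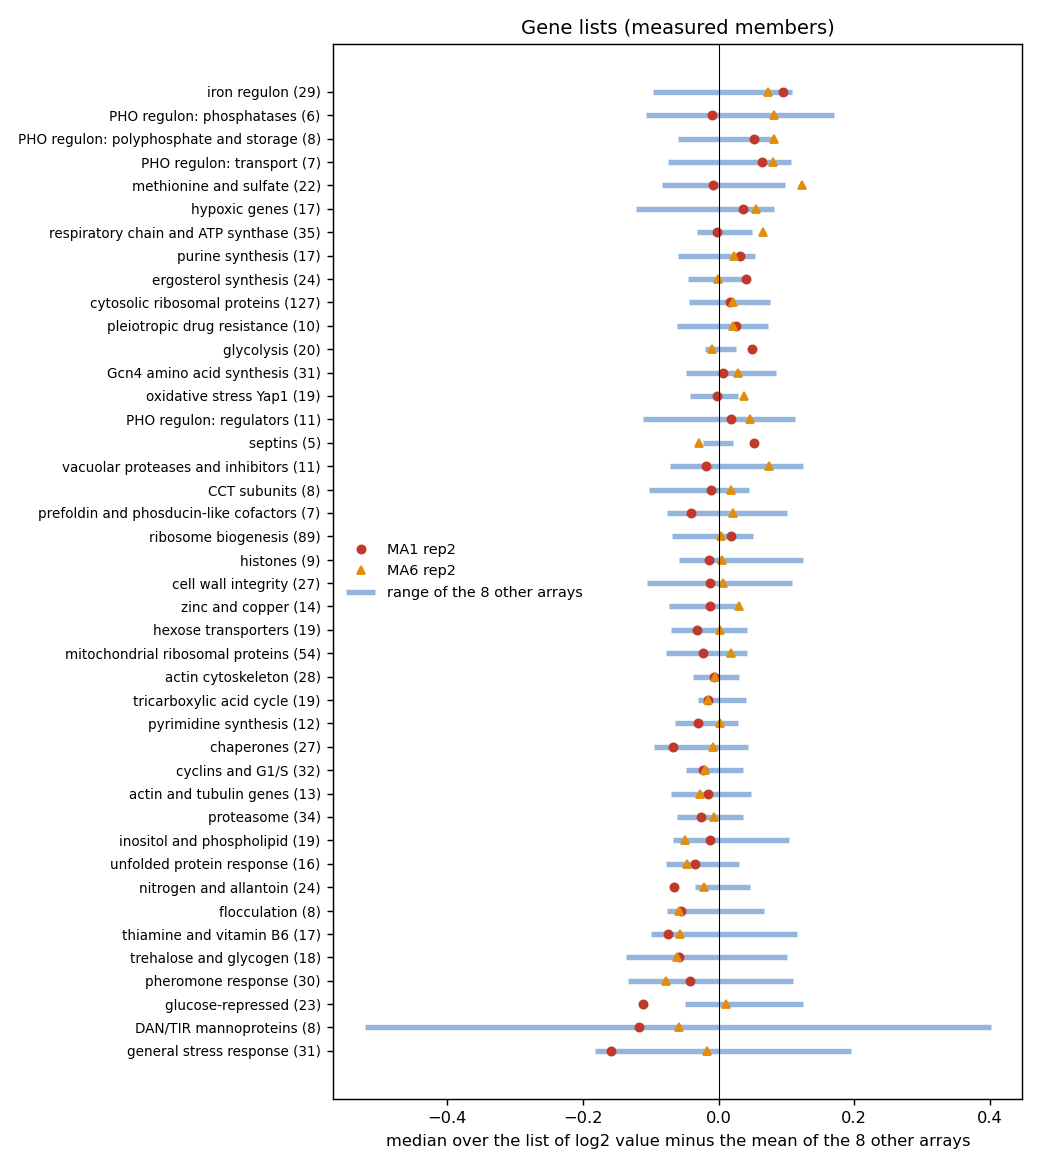
Median over each gene list (y axis, number of measured members in brackets) of the log2 value minus the mean of the 8 other arrays (x axis), for MA1 rep2 (red circle) and MA6 rep2 (orange triangle), with the range of the 8 single arrays as a blue bar. The symbols lie between -0.16 and 0.12, and in no list are both outside the bar on the same side.

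The 2 arrays were close to each other, but not closer than some other pairs. The root mean square difference over 5449 genes was 0.125 (log2) between MA1 rep2 and MA6 rep2, against 0.123 to 0.209 between them and the 8, and 0.110 to 0.281 among the 8. Of the 45 pairs of the 10 arrays, 3 were closer. Between the 2 arrays 3 genes (0.0551%) were at least 2-fold apart. SPL2 was given above. YIR042C, of unknown function, was 5.56 on MA1 rep2 and 6.68 on MA6 rep2. On the 8 arrays its median was 4.93 and its highest value 5.87, at the dim end of the scale. COS8, of a subtelomeric family with near-identical copies, was 10.65 and 8.78, against 7.76 to 10.93. Set against the median of the other 9 arrays, MA1 rep2 had 2 genes at least 2-fold apart (CCT3 and COS8). MA6 rep2 had 4 (CCT3, SPL2, PHO84 and YIR042C), where the 8 arrays had 2 to 14. CCT3, which chose the 2 arrays, is in the counts of both.

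The labelled strains are the groups that the study's design compares, and they do not hold the 2 arrays together. A limma fit of 5498 probe sets over all 16 arrays, with 1 mean per labelled strain, called 0 probe sets in MA1 against WT (0%) and 0 in MA6 against WT (0%) at an adjusted p of 0.05. There were 227 and 635 at an unadjusted p under 0.05. With no change at all, a share of about 0.05 of the 5498 would fall under this limit. The MA1 count was below that share and the MA6 count above it. Neither count is a set of calls, since 0 probe sets passed the adjustment. CCT3, given without its test because it chose the arrays, averaged 11.14 in MA1, 11.15 in MA6 and 12.43 in WT. The log2 change of PHO84 against WT was 2.03 ± 1.45 in MA1 (SE, n = 2 each, limma adjusted p 0.61) and 2.38 ± 1.45 in MA6 (limma adjusted p 0.43), and neither passed the test. In both strains the low CCT3 value was on 1 of the 2 arrays, which enters the spread. In MA1, MA6 and WT alike, rep1 had TIR1 under 12 and rep2 above 12. The root mean square difference between rep1 and rep2 was 0.400 in MA1, 0.382 in MA6 and 0.413 in WT (log2). This spread also enters the fit, so the 0 calls are not evidence that the strains are alike.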

How the data were processed

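The authors deposited 1 table of log2 values, 1 value for each probe set and array. The submitters' processing notes name Partek and RMA, without versions. RMA corrects background, normalizes between arrays and summarizes probes, so values are relative levels, and scanner files were not used here. Of 10928 probe sets, 5498 were paired with exactly 1 S. cerevisiae gene by the platform annotation. They stand for 5449 genes, and the probe set with the highest mean represented each of the 47 genes with several. All 5449 had a coding length in the R64 gene table, which gave names, chromosomes, neighbours and coding lengths. No filter on dim values was applied.

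Differences are the mean of the 2 arrays minus the mean of the 8. A gene was counted when both arrays lay outside all 8, and also at 2-fold. No p-value is given for the 2 arrays against the 8, nor for CCT3, since CCT3 chose the arrays. The named genes are the CCT genes, 3 neighbours of CCT3 on each side, the phosphate and marker genes, up to 15 genes per direction with both arrays outside, and the largest 4 of each list. SLA2, SSE1, ACT1, TUB2 and the members of lists that lay outside are named with their lists, the reporter probe sets, YIR042C and COS8 after their values were seen. The arrays and lists were chosen with earlier results of these data known. Strain fits used limma 3.58.1 in R 4.3.3 (two-sided, Benjamini-Hochberg). Scripts were tested on simulated data. With 2 arrays a strain, the number of arrays limits the precision, and p-values measure the spread between arrays, which may be technical. Replicate numbers did not pair the arrays of MA1 or MA6 with those of WT. The deviations of same-numbered arrays correlated at -0.19 (MA1 and WT) and -0.168 (MA6 and WT). No such correlation was computed between MA1 and MA6. Their same-numbered arrays had root mean square differences of 0.123 (rep1) and 0.125 (rep2) in log2. Alternatives changed the normalization, the filter, the arrays compared, the fold limit and the fit.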

Additional observations from a re-analysis of the deposited data

Results flagged for a closer look

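Of 86 values examined over the 8 arrays, 4 had 1 array standing apart by Dixon's ratio above its critical value of 0.526. Chance sets about 1 in 20 such values apart. CCT4 was 13.11 on MA5 rep2, with the next array at 13.04. GAL2 was 6.591 on MA3 rep2, with the next at 6.244. LST4, a gene of permease sorting, was 11.12 on WT rep2, with the next at 10.99, and VTC4 was 12.05 on MA2 rep2, with the next at 11.91.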

How the results depend on the processing

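The choice of arrays fixes the sign of the CCT3 difference, which was -2.23 to -2.05 (log2) over the alternatives. That of RPTR-Sc-J01347-2_at was -8.12 to -8.05. The count of genes at least 2-fold lower was 1 (CCT3) with the median of the 8 arrays, with all 14 other arrays, and with the 5 arrays that have YAR068W under 10 (chosen after seeing the data). It was 2 to 3 with 1 array left out, 3 when YAR066W joined. CCT3, which chose the arrays, is in each of these counts. The count at least 2-fold higher was 1 with all 14 arrays (FIT1), with the 6 arrays of high URA3 (PHO84) and with the 5 arrays (YIR042C), and 1 at 1.5-fold (TPO3). It was 0 to 3 with 1 array left out: 3 without MA1 rep2 (PHO84, SPL2 and YIR042C), 1 without MA2 rep2 (PHO84), and 1 without MA3 rep2 (YIR042C). PHO84 ranged over 1.00 to 2.06, SPL2 over 0.22 to 1.23, YAR068W over -1.44 to -0.60 and TPO3 over 0.40 to 0.91. The phosphate median was 0.0260 to 0.0698 with 1 array left out. Against all 14 arrays, 35 of 216 named genes had the opposite sign to that against the 8. Of genes with both arrays outside the 8 these were MFA1 (0.0347) and PHO86 (-0.0272), and of the others DAN1 (1.33), TIR1 (1.12) and HXT4 (-0.38) moved most; this setting adds the 6 arrays left out for low TIR1. The replicate block gave 0 calls in MA1 and MA6, as did every other strain fit, leaving out 1 array included; unadjusted counts under the block were 200 and 581. Crossing the replicate numbers also gave 0 and 0. Of the named genes' values under alternatives, 3801 shifted by less than the SD of the gene over the 8 arrays and 66 by more. A further 2 values changed sign, in genes with both arrays outside the 8. Sign changes of the other genes are not counted apart, and a gene of large SD, such as YAR068W, can shift far within it. Limits: 2 arrays under different labels, no scanner files, and relative levels only.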

Other observations

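The list median of MA1 rep2 lay outside the 8 arrays in 5 lists and that of MA6 rep2 in 6. The septin list was in both counts, with MA1 rep2 above (0.05) and MA6 rep2 below (-0.03) the -0.02 to 0.02 of the 8. In MA6 rep2 the methionine and sulfate genes had a median deviation of 0.12, against -0.08 to 0.10 on the 8 arrays, and those of the respiratory chain and ATP synthase 0.06, against -0.03 to 0.05. In MA1 rep2 the median was -0.01 and -0.003 for the same lists. In MA1 rep2 the glucose-repressed genes had a median deviation of -0.11, against -0.05 to 0.12 on the 8, and 0.01 in MA6 rep2. Glycolysis had 0.05 in MA1 rep2 and -0.01 in MA6 rep2, against -0.02 to 0.03. STR3, a cystathionine beta-lyase of methionine synthesis, was 9.47 on MA1 rep2 and 9.99 on MA6 rep2, against 9.02 to 9.88.

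The 18S ribosomal RNA probe set at the 5′ end was 12.53 on MA1 rep2 and 11.42 on MA6 rep2, against 11.03 to 12.69 on the 8 arrays. Over the 16 chromosomes the median difference of the 2 arrays stayed between -0.02 and 0.01 (log2).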
